A study of Mus musculus with 374 samples.

Results

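Described here are 7 genes of MHC class II antigen presentation, H2-Aa, H2-Ab1, H2-Eb1, Cd74, H2-DMa, H2-DMb1 and Ciita, which were chosen by name among 19829 mouse genes measured in single blood-forming cells, and all 7 were found. MHC class II molecules carry peptides from ingested protein to the surface of antigen-presenting cells, where CD4 T cells read them. H2-Aa and H2-Ab1 encode the alpha and beta chains of I-A, and H2-Eb1 encodes the beta chain of I-E. The invariant chain Cd74 fills the peptide groove while the complex travels to the endosome, H2-DM (H2-DMa with H2-DMb1 or H2-DMb2) exchanges the remnant of Cd74 for peptide, and H2-O (H2-Oa with H2-Ob) restrains H2-DM. Ciita encodes the coactivator that switches the family on, and it acts through RFX, CREB and NF-Y proteins bound at the conserved X and Y boxes of these promoters. B lymphocytes, dendritic cells and macrophages are the usual expressing cells of the mouse.

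Transcripts were measured by CEL-seq2, which reads only transcript 3′ ends and gives each captured molecule a well barcode and a unique molecular identifier (UMI), so that a count is a number of molecules. The cells came from 1 C57BL/6 female mouse aged 10 to 13 weeks. From its bone marrow were sorted 44 B lymphocytes (B220+ FSC-Alow), 96 erythroblasts (Ter119+ CD44+ FSC-Amid/high), 96 granulocytes (Mac1+ Gr1+) and 95 progenitor/stem cells (Lin- Kit+ Sca1+), and from its thymus 43 T lymphocytes (CD3+ FSC-Alow). FSC-A is forward scatter area, which follows cell size, and the fluorescence of each sorted cell was recorded with its well.

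All 374 cells lay on 1 plate with 384 wells. Each population was therefore 1 sample, no difference could be tested across replicates, and the 95% intervals given with the values are exact Poisson (levels), exact binomial (shares) or exact conditional binomial (ratios) intervals that cover counting error only. Populations filled whole plate rows, so row and population cannot be told apart. The progenitor/stem cells gave 834812 UMIs on mouse genes, the erythroblasts 666728, the granulocytes 403506, the T lymphocytes 200396 and the B lymphocytes 135808. A B lymphocyte well had a median of 3028.5 UMIs and a progenitor/stem well 7959. Each gate showed its own markers: the 7 B lymphocyte markers (Ms4a1, Cd79a, Cd79b, Pax5, Ebf1, Ighm and Vpreb3) summed to 9558 CPM (UMIs per 1000000 UMIs on mouse genes) in B lymphocytes and to between 121 and 309 CPM in the other populations. Haemoglobin transcripts, at 23.5% of the UMIs of the erythroblasts, also made up 2.83% of those of the B lymphocytes and 1.21% to 1.77% of those of the other non-erythroid populations. In 7 wells the profile was closest to a population other than the labelled one. Among them was the B lymphocyte well A8, which held 519 UMIs of granulocyte markers, none of the B lymphocyte markers and no UMI of the 7 genes.

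Of the 7 genes, 5 lie in the class II region of chromosome 17. On GRCm38 (GENCODE M21), a build the authors may not have used, H2-DMa occupies chr17:34119541-34139101, H2-DMb1 chr17:34153072-34160230, H2-Ab1 chr17:34257689-34269419, H2-Aa chr17:34282744-34287823 on the minus strand and H2-Eb1 chr17:34305867-34316674. Ciita lies at chr16:10480059-10528418. All 7 genes are protein-coding, and all but H2-Aa are on the plus strand. H2-DMa overlaps Brd2, which runs on the opposite strand, and Ciita overlaps Dexi in the same way. The use of strand in counting is not given in the sources used here, so reads from the overlaps cannot be assigned with certainty. The overlap with Brd2 lies at the 5′ end of H2-DMa: Brd2 reaches 34122634, and the 3′ end of H2-DMa is at 34139101. Brd2 itself lay between 163 and 304 CPM in all populations and was highest in T lymphocytes. Reads from the overlap were not counted apart, so their part in the H2-DMa counts was not tested.

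The promoters show what the family shares in sequence. RefSeq (GRCm38.p6) entries of 250 bases before to 50 after the start site were found for H2-Aa, H2-Eb1, H2-DMa and H2-DMb1 (4 of the 7 genes), and Cd74, H2-Ab1 and Ciita had no entry. The Y box GATTGG, read on both strands, was in the promoters of all 4 and in 16.1% of 32851 promoters. The X2 core (TGACG or GNGTCA) was in those of H2-Aa and H2-DMa and in 50.1% of promoters. The X1 core GCAACAG and the S box core GACCCT were in none of the 4, against 5.48% and 14.3% of promoters. A looser pair, GNAAC starting 25 to 35 bases before GATTGG on the same strand, was chosen after the sequences had been seen. It was in 0.651% of promoters, in those of H2-Aa, H2-Eb1 and H2-DMb1, and, among 4 other class II genes with an entry, in those of H2-Oa, H2-Ob and H2-Eb2. For H2-DMb1 the 140 bases before the RefSeq start site (chr17:34153051-34153190) run into the gene as placed above. Its matches, the Y box among them, may therefore lie inside the gene. The 140 bases before the start site are given for a gene of the alpha chain, a gene of the beta chain and the gene of the H2-O beta chain, with GNAAC and GATTGG in capitals: H2-Aa at chr17:34287824-34287963 (minus strand), H2-Eb1 at chr17:34305727-34305866 and H2-Ob at chr17:34238765-34238904 (both plus strand).
H2-Aa: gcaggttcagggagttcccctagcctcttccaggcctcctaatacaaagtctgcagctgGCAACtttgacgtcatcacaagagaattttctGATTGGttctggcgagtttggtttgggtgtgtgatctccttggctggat
H2-Eb1: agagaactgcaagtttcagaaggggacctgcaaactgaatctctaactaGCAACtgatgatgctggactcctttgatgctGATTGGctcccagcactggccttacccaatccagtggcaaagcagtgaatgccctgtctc
H2-Ob: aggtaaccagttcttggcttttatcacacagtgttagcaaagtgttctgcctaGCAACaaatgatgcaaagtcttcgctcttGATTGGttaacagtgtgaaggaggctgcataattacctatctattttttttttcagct
The capitals start 32 bases apart in H2-Aa, 31 in H2-Eb1 and 29 in H2-Ob, and the GATTGG begins at -49, -60 and -58 bases from the start site. A match of letters is a description and not a measured binding site.

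The chains of the class II molecule and the invariant chain separated the B lymphocytes from every other population. Of Cd74 (chr18:60803848-60812652), 247 UMIs came from B lymphocytes, 9 from T lymphocytes, 11 from granulocytes, 16 from erythroblasts and 10 from progenitor/stem cells. On the CPM scale its level was 1819 in B lymphocytes (interval 1599 to 2060) and between 12.0 and 44.9 elsewhere. The B lymphocyte level was 40.5-fold that of the T lymphocytes (21.0 to 89.6), 66.7-fold that of the granulocytes (36.6 to 135), 75.8-fold that of the erythroblasts (45.7 to 135) and 152-fold that of the progenitor/stem cells (81.2 to 321). No interval of another population came near that of the B lymphocytes.

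Of H2-Aa, the I-A alpha chain, 94 UMIs came from B lymphocytes, 8 from T lymphocytes, 8 from granulocytes, 24 from erythroblasts and 26 from progenitor/stem cells. Its level was 692 CPM in B lymphocytes (559 to 847) and between 19.8 and 39.9 CPM elsewhere, and the 4 lower populations had overlapping intervals. H2-Ab1, the I-A beta chain, had 74, 2, 7, 16 and 46 UMIs in the same order, or 545, 9.98, 17.3, 24.0 and 55.1 CPM. Below the B lymphocytes the progenitor/stem cells came next for H2-Ab1, at 2.30-fold the erythroblasts (1.28 to 4.35) and 3.18-fold the granulocytes (1.42 to 8.34). H2-Eb1, the I-E beta chain, had 67, 6, 4, 12 and 11 UMIs, or 493, 29.9, 9.91, 18.0 and 13.2 CPM, and the 4 lower populations could not be ordered. C57BL/6 mice lack a working I-E alpha gene, and the alpha gene H2-Ea was not in the table.

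**Figure D1:**
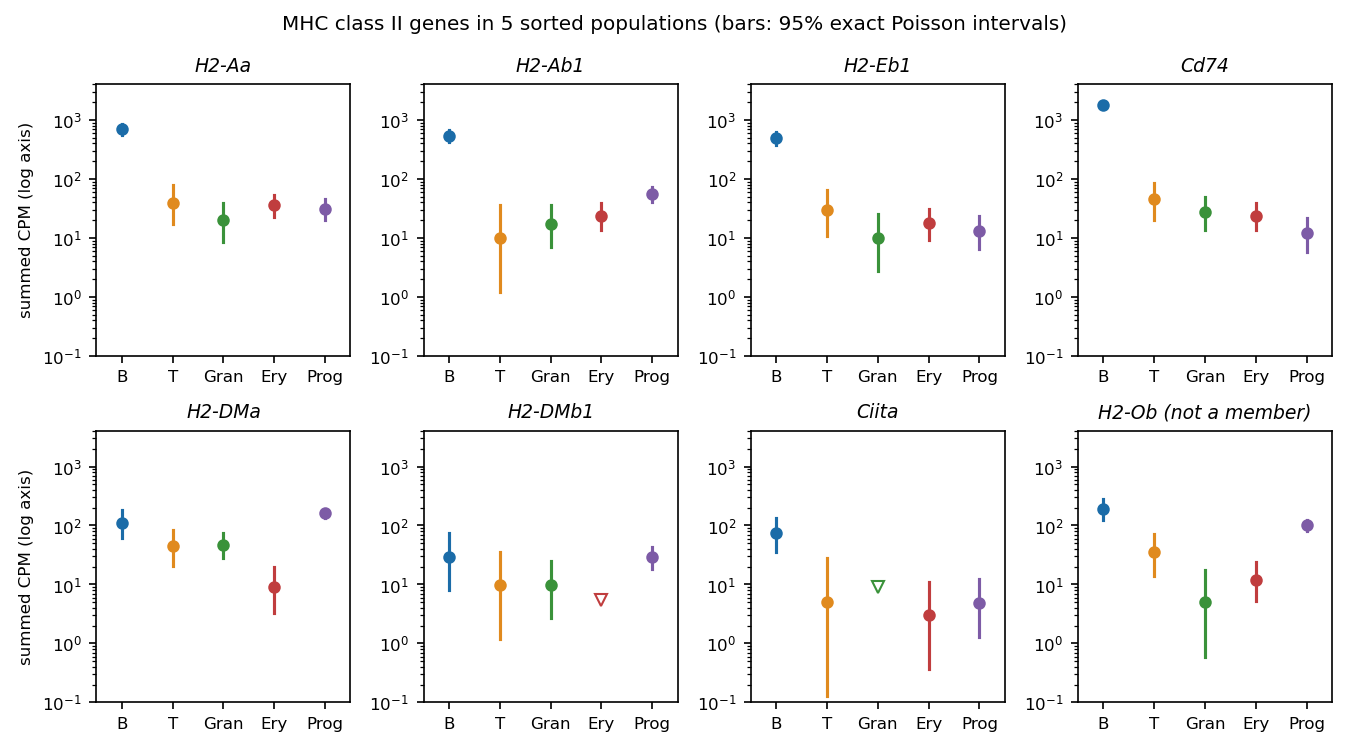
Summed level (CPM, log axis) of the 7 class II genes and H2-Ob in B lymphocytes (B), T lymphocytes (T), granulocytes (Gran), erythroblasts (Ery) and progenitor/stem cells (Prog), with bars for 95% exact Poisson intervals; open triangles mark the upper bound of a population with 0 UMIs. The B lymphocytes stand above the other populations for H2-Aa, H2-Ab1, H2-Eb1, Cd74 and Ciita, whereas H2-DMa is at 161 CPM in progenitor/stem cells and 110 CPM in B lymphocytes.

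For a view over all genes, those with 20 UMIs or more over both populations were compared at a 4-fold limit, with sums under 3 UMIs set to 3. Against the T lymphocytes, H2-Aa, H2-Ab1, H2-Eb1 and Cd74 were past the limit and H2-DMa was not (4 of the 5 members that had enough UMIs), beside 4.21% of 3064 genes. Against the granulocytes the same 4 of 5 were past it, beside 5.83% of 3828 genes. Against the erythroblasts H2-DMa was past it as well (5 of 5, beside 11.4% of 4553 genes). Against the progenitor/stem cells H2-Aa, H2-Ab1, H2-Eb1 and Cd74 were past it and H2-DMa and H2-DMb1 were not (4 of 6, beside 2.48% of 7297 genes). The median ratio of the members compared was 17.3, 34.9, 22.7 and 16.1, and the median over all genes compared was 0.830, 1.13, 0.963 and 0.802. Most of these members had enough UMIs only because of the B lymphocytes. Ciita had too few UMIs in each of the 4 comparisons and H2-DMb1 in 3 of them.

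Ciita, the coactivator of the family, had few UMIs. There were 10 UMIs in 5 of the 44 B lymphocyte wells, 4 UMIs in progenitor/stem cells, 2 in erythroblasts, 1 in a T lymphocyte and 0 in granulocytes. Its level in B lymphocytes was 73.6 CPM (35.3 to 135), which was 15.4-fold that of the progenitor/stem cells (4.43 to 67.1) and, with the granulocytes set to a floor of 3 UMIs over the population, at least 9.90-fold higher than theirs. At a limit of 3 UMIs, the count of 0 in granulocytes allows a level of up to 7.43 CPM and a share of up to 3.12% of wells with a UMI. Ciita varied over the populations much as the chain genes did: its correlation over the 5 summed levels, log2(CPM + 10), was 0.996 with H2-Aa and 0.963 with Cd74, a description over 5 points that share their depth.

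The class II UMIs of the B lymphocytes were concentrated in few cells. The sum of the 7 genes ran from 0 to 95 UMIs per well with a median of 2, and 35 of the 44 wells had at least 1. At least 10 UMIs of H2-Aa, H2-Ab1, H2-Eb1 and Cd74 together were found in 10 B lymphocyte wells and in no well of any other population. The highest well, A14, held 18.6% of all UMIs of the 7 genes in B lymphocytes (43 of Cd74, 20 of H2-Aa, 17 of H2-Ab1 and 13 of H2-Eb1), and A6 followed with 84.

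Of these 10 wells, 8 had the most surface B220, the CD45 isoform used to gate B lymphocytes, and the others were B2 and B17. B220 fluorescence fell into a group of 36 wells from 352 to 1718 and a group of 8 wells from 2458 to 4783 arbitrary units, and a split at 2000 was added after the values had been seen. Cd74 was present in all 8 wells with high B220, at a lowest count of 5, a median of 17 and a highest of 51 UMIs, and in 17 of the 36 others, with a median of 0. H2-Aa ranged from 2 to 20 UMIs in the 8 wells (median 8.5), H2-Ab1 from 1 to 17 (median 6.5) and H2-Eb1 from 2 to 14 (median 5.5). In the 36 wells the median of each of the 3 chain genes was 0.

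As summed levels, Cd74 was 15.1-fold higher in the wells with high B220 (11.4 to 20.3), H2-Aa 17.4-fold (10.7 to 29.1), H2-Ab1 20.4-fold (11.6 to 38.0) and H2-Eb1 23.4-fold (12.6 to 46.7). All 4 were past the 4-fold limit, beside 1.46% of 1029 genes with at least 20 UMIs in B lymphocytes. H2-Ab1 and H2-Eb1 reached 20 UMIs only through these wells, and the split was chosen after the values had been seen, so the count is a description and nothing is read from it. H2-DMa had 10 UMIs against 5, an 11.3-fold higher level (3.50 to 42.0), and Ciita had 8 UMIs against 2, a 22.5-fold higher level (4.49 to 218). H2-DMb1, with 1 UMI against 3, could not be ordered. The sum of the 7 genes was 382 against 129 UMIs, 16.7-fold higher per UMI sequenced (13.6 to 20.5). At the median of B220 (1077.5), which divides the wells 22 to 22, the sum was 470 against 41 UMIs and 10.6-fold higher (7.71 to 15.0). The 22 wells below it held 11 UMIs of H2-Aa, 4 of H2-Ab1, 6 of H2-Eb1 and 18 of Cd74. Without the 8 wells, the sum in the other 36 stood at 1119 CPM, which was 6.06-fold the level of the T lymphocytes, 8.52-fold that of the granulocytes, 9.81-fold that of the erythroblasts and 3.66-fold that of the progenitor/stem cells, in place of 20.4-, 28.6-, 33.0- and 12.3-fold with all 44 wells. The wells with high B220 were not deeper, with a median of 2321 UMIs against 3144.5. Within the 36 wells alone, Spearman's correlation of B220 with the CPM of the 7 genes was 0.148, so the relation rested on the separation of the 2 groups.

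**Figure D2:**
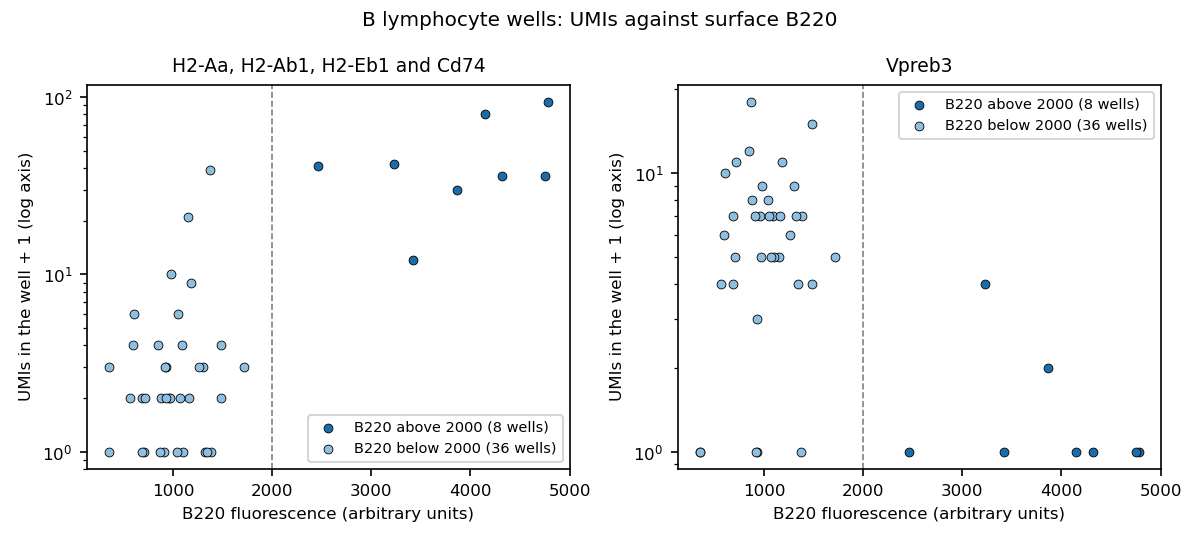
UMIs in each B lymphocyte well, plus 1, on a log axis against its B220 fluorescence (arbitrary units) for H2-Aa, H2-Ab1, H2-Eb1 and Cd74 together (left) and for Vpreb3 (right); dark points are the 8 wells above 2000. All 8 hold at least 11 UMIs of the class II genes, while Vpreb3 has 4 UMIs in them and 197 in the other 36 wells.

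Some genes of B cell maturation also differed between the 8 and the 36 wells. The 5 markers of mature B lymphocytes in the table are given singly, as the share of all genes with an interval above 1 was not computed. Ighd, the constant region of IgD, had 55 UMIs in the 8 wells and 25 in the 36 (12.4-fold, 7.58 to 20.7), Cr2 7 and 5 (7.88-fold, 2.15 to 31.5) and Cd37 22 and 63 (1.96-fold, 1.15 to 3.24). Fcer2a had 3 UMIs, all in the 8 wells, and the interval of Cd22 spanned 1 (2.60-fold, 0.809 to 7.32). Of 5 markers of B precursors in the table, Rag1, a subunit of the recombinase of developing lymphocytes, had 3 UMIs against 86 (0.196-fold, 0.0397 to 0.593), and the other 4, with 2 to 5 UMIs each, could not be ordered. Vpreb3, also known from B precursors and named after its values had been seen, had 4 against 197 (0.114-fold, 0.0308 to 0.297). The B lymphocyte markers without Ighm summed to 83 and 581 UMIs, a ratio of 0.804 (0.631 to 1.01). Well B2, with 41 UMIs of the 7 genes (17 of Cd74), had a B220 of 1373 and no UMI of Rag1 or Vpreb3, and its CD3 fluorescence of 7905 was the highest of the B lymphocytes. Well B17 had 20 UMIs of Cd74 and 2 of Ciita but none of H2-Aa, H2-Ab1 or H2-Eb1.

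H2-DM followed another order. Of H2-DMa, 134 UMIs came from progenitor/stem cells, 15 from B lymphocytes, 9 from T lymphocytes, 19 from granulocytes and 6 from erythroblasts. Its level was 161 CPM in progenitor/stem cells (134 to 190) and 110 CPM in B lymphocytes (61.8 to 182), a ratio of 1.45 whose interval of 0.850 to 2.67 does not order the 2 populations. For H2-DMa and H2-DMb1 together the ratio was 1.35 (0.838 to 2.31), and 2.73 without the 8 B lymphocyte wells with high B220. The progenitor/stem cells were 3.57-fold above the T lymphocytes (1.83 to 7.99), 3.41-fold above the granulocytes (2.10 to 5.84) and 17.8-fold above the erythroblasts (7.98 to 49.5). H2-DMa was found in 70 of 95 progenitor/stem wells, with at most 6 UMIs in a well and a median of 1. After thinning every well of at least 1000 UMIs to 1000, the share of wells with a UMI was 15.6% for progenitor/stem cells, 10.7% for B lymphocytes, 4.01% for T lymphocytes, 3.77% for granulocytes and 1.13% for erythroblasts.

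H2-DMb1, the beta chain that pairs with H2-DMa, had 24 UMIs in 22 progenitor/stem wells, 4 UMIs each in B lymphocytes and granulocytes, 2 in T lymphocytes and 0 in erythroblasts. Its level was 28.7 CPM in progenitor/stem cells (18.4 to 42.8) and 29.5 CPM in B lymphocytes (8.03 to 75.4). With the erythroblasts set to a floor of 3 UMIs over the population, the progenitor/stem level was at least 6.39-fold higher than theirs, and the 0 of 96 erythroblast wells allows, at the same limit, a share of up to 3.12%. The second beta gene, H2-DMb2, had 12 UMIs in B lymphocytes and 4 in progenitor/stem cells, so its level was 18.4-fold higher in B lymphocytes (5.59 to 78.5). The last 300 bases of the longest coding transcripts of H2-DMb1 and H2-DMb2 were identical at 208 of 278 aligned positions (74.8%). Whether any reads of these 2 genes were confused was not tested. Over the 5 summed levels H2-DMa correlated at 0.987 with H2-DMb1 and at 0.312 with Cd74, again a description over 5 points.

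The 2 H2-DM genes made up 62.0% of the UMIs of the 7 genes in progenitor/stem cells (55.7 to 67.9), 43.4% in granulocytes (29.8 to 57.7), 29.7% in T lymphocytes (15.9 to 47.0), 7.89% in erythroblasts (2.95 to 16.4) and 3.72% in B lymphocytes (2.25 to 5.75). The share of a gene depends on how well its 3′ end is captured, so these shares are compared between populations and not between genes. The progenitor/stem cells, whose H2-DM level could not be told from that of the B lymphocytes, had 3.14% of their level of H2-Aa, H2-Ab1, H2-Eb1 and Cd74 together (2.49 to 3.93). At the 4-fold limit, H2-DMa and H2-DMb1 were past it for the progenitor/stem cells over the erythroblasts (2 of 6 members compared, beside 30.0% of 8076 genes). No member was past it over the T lymphocytes (0 of 4, beside 3.21%), the granulocytes (0 of 5, beside 19.6%) or the B lymphocytes (0 of 6, beside 2.74%). Since 30.0% of all genes were past the limit over the erythroblasts, the count there is no result about H2-DM alone.

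**Figure D3:**
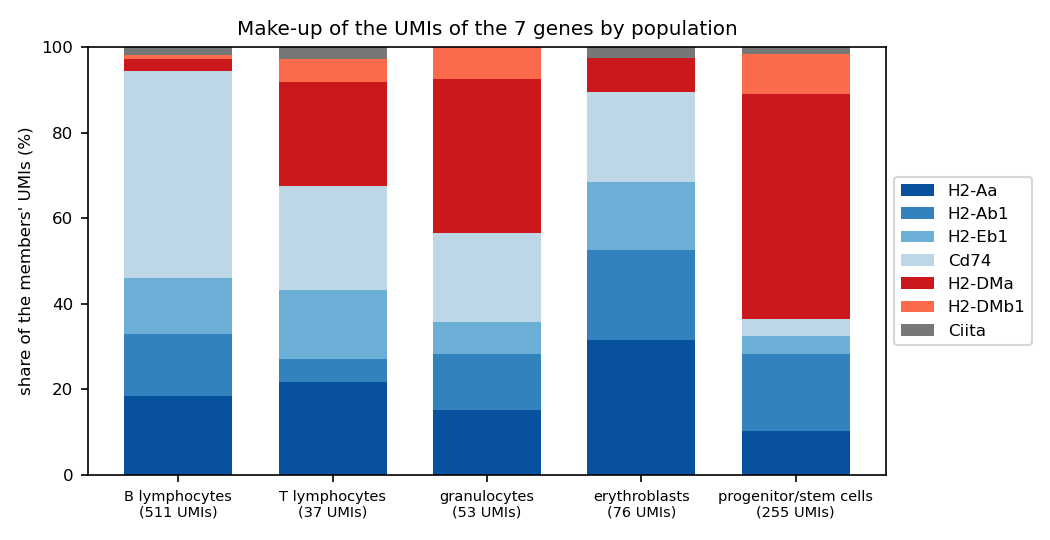
Stacked bars give the share (%) of each of the 7 genes in their summed UMIs in each population, with the number of UMIs under the bar. H2-DMa and H2-DMb1 (red) take 62.0% in progenitor/stem cells and 3.72% in B lymphocytes, where H2-Aa, H2-Ab1, H2-Eb1 and Cd74 (blue) take most.

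H2-Ob, whose product holds H2-DM in check, had 84 UMIs in progenitor/stem cells, 26 in B lymphocytes, 8 in erythroblasts, 7 in T lymphocytes and 2 in granulocytes. Its level was 191 CPM in B lymphocytes and 101 CPM in progenitor/stem cells, a ratio of 1.90 (1.18 to 2.98). The progenitor/stem cells were 8.39-fold above the erythroblasts (4.07 to 20.1) and 20.3-fold above the granulocytes (5.45 to 170). A UMI of H2-Ob was found in 49 of the 95 progenitor/stem wells. Its partner H2-Oa had 7 UMIs in B lymphocytes and 12 in progenitor/stem cells. H2-Ob thus stood high in the populations where H2-DMa did, and unlike H2-DMa it was lower in granulocytes (4.96 CPM) than in T lymphocytes (34.9 CPM).

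Outside the B lymphocytes, a UMI of any of the 7 genes was found in 23 of 43 T lymphocyte wells, 29 of 96 granulocyte wells, 34 of 96 erythroblast wells and 84 of 95 progenitor/stem wells. Thinned to 1000 UMIs, the shares were 15.1%, 11.2%, 10.1% and 27.1%, against 55.2% in B lymphocytes. For Cd74 the thinned share was 3.74% in T lymphocytes, which are not among the usual expressing cells. It was 2.32%, 2.57% and 1.36% in granulocytes, erythroblasts and progenitor/stem cells, no higher than in T lymphocytes. Whether these UMIs came from the sorted cells themselves was not tested, and nothing is read from them about expression. For H2-Ab1 the thinned share was 1.39% in T lymphocytes and 5.46% in progenitor/stem cells. In single wells the most was 6 UMIs in T lymphocytes (P21), 7 in granulocytes (I17), 9 in erythroblasts (C22) and 11 in progenitor/stem cells (K6 and N3). I17 held 6 UMIs of H2-DMa, and its whole profile was closest to the progenitor/stem cells. In K6, 5 UMIs were of H2-Ab1 and 3 of H2-DMa, and in N3, 6 were of H2-DMa. Neither K6 nor N3 held Cd74. K6 also held 174 UMIs of granulocyte markers and 151 of Hba-a1, against medians of 15 and 28 for progenitor/stem wells, and 14 of Ighm and 6 of Igkc, against medians of 0. P21 held 122 UMIs of granulocyte markers and 110 of Hba-a1, the most of any T lymphocyte well, against medians of 14 and 27. In N3 the granulocyte markers and Hba-a1 had 19 and 24 UMIs. The part of RNA of other cells in these wells was not tested.

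The low levels were set beside genes typical of the B lineage. As a share of the B lymphocyte level, H2-Aa, H2-Ab1, H2-Eb1 and Cd74 together stood at 3.52% in T lymphocytes, 2.09% in granulocytes, 2.87% in erythroblasts and 3.14% in progenitor/stem cells. The B lymphocyte markers without Ighm stood at 1.94%, 1.22%, 1.38% and 1.18%. Per UMI of those markers, B lymphocytes had 0.726 class II UMIs (0.644 to 0.817), T lymphocytes 1.32 (0.696 to 2.53), granulocytes 1.25 (0.706 to 2.23), erythroblasts 1.51 (1.02 to 2.25) and progenitor/stem cells 1.94 (1.35 to 2.81). The ratios of the erythroblasts and of the progenitor/stem cells were above the pooled ratio of the B lymphocytes beyond counting error. That pooled ratio joins unlike wells. The 8 wells with high B220 had 363 class II and 83 marker UMIs, and the other 36 had 119 and 581. The intervals do not cover this spread, so no departure from every B lymphocyte is read from them. Whether RNA released from B lymphocytes gave part of these UMIs was not tested.

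Among themselves, the class II genes did not keep the B lymphocyte ratio in progenitor/stem cells. Per UMI of Cd74, H2-Ab1 had 0.300 UMIs for B lymphocytes (0.228 to 0.390), 0.222 for T lymphocytes (0.0234 to 1.07), 0.636 for granulocytes (0.209 to 1.80), 1.00 for erythroblasts (0.468 to 2.14) and 4.60 for progenitor/stem cells (2.29 to 10.2). H2-Ab1 in progenitor/stem cells was at 10.1% of its B lymphocyte level (6.84 to 14.8), whereas Cd74 was at 0.659% (0.312 to 1.23). The intervals of these shares lie far apart, and those of the T lymphocytes for H2-Ab1 (0.218 to 6.85) and Cd74 (1.12 to 4.76) overlap.

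**Figure D4:**
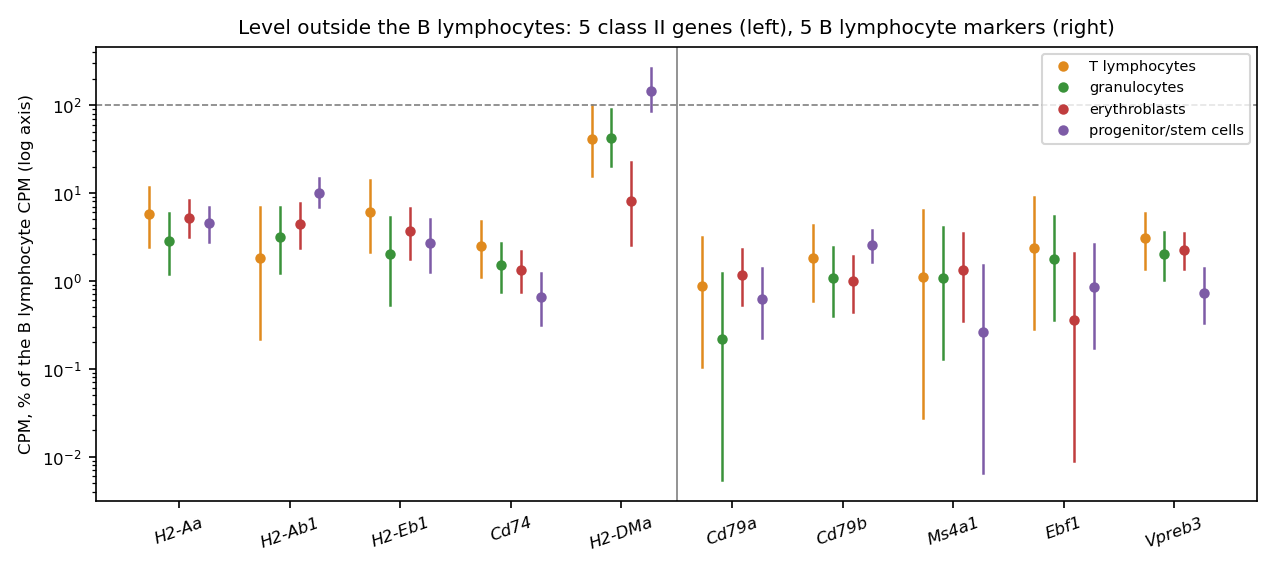
Level in each population as a percentage of the B lymphocyte level (log axis) for 5 class II genes (left of the line) and 5 B lymphocyte markers (right), with bars for 95% exact conditional binomial intervals. H2-DMa lies at 145% in progenitor/stem cells, H2-Ab1 at 10.1% and Cd74 at 0.659%.

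In the erythroblasts the class II UMIs varied with the position on the plate. Row C lies beside the B lymphocyte row B, and its wells C18 to C24 (chosen after the counts had been seen) held 37 of the 68 UMIs of H2-Aa, H2-Ab1, H2-Eb1 and Cd74 in erythroblasts. Every one of these 7 wells had a UMI, and their level was 750 CPM (528 to 1034), against 50.2 CPM (34.1 to 71.3) in the other 89 wells. The B lymphocyte markers without Ighm were at 406 CPM in the 7 wells and 40.5 CPM in the 89, and Igkc, the immunoglobulin kappa constant region, at 426 and 34.0 CPM. The rest of row C (columns 1 to 17) was at 46.0 CPM (16.9 to 100), no higher than rows D to F at 51.3 CPM (33.2 to 75.8), so the high level was in this run of wells and not along the row. Across the border, haemoglobin made up 8.59% of the UMIs of the B lymphocyte wells B19 to B24 and 1.90% of those of the other 38. By well, the share ran from 5.21% to 13.6% in B19 to B24 (median 7.93%). In the other 38 it ran from 0.600% to 18.1% (median 1.56%), so a high share was not confined to the border.

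**Figure D5:**
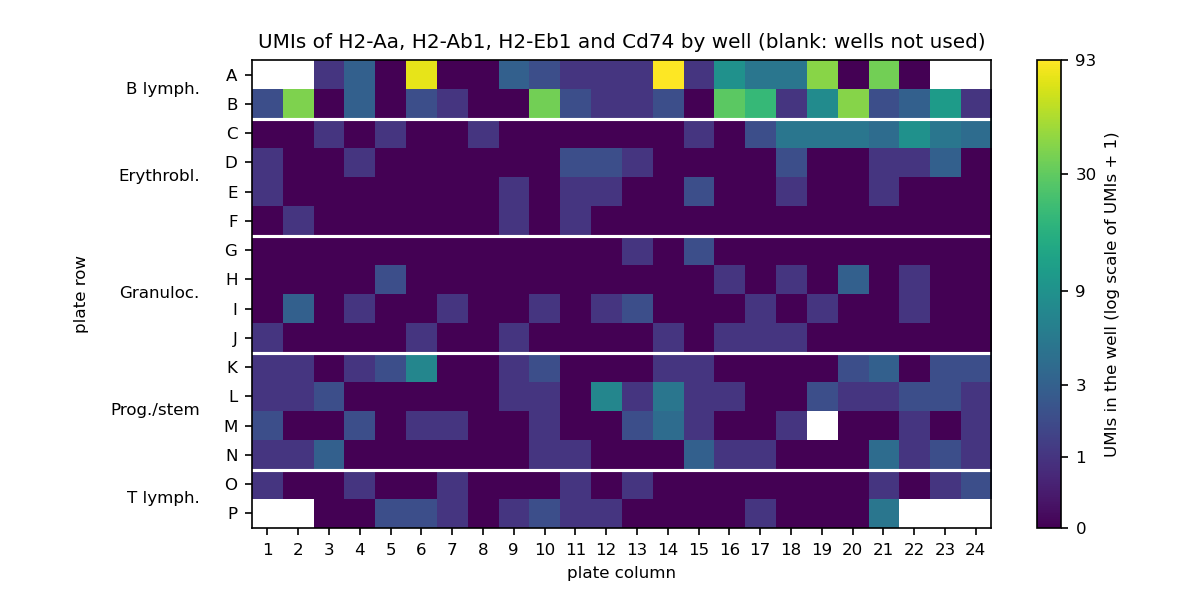
UMIs of H2-Aa, H2-Ab1, H2-Eb1 and Cd74 in each well by plate row and column (colour on a log scale of UMIs + 1), with white lines between populations. Outside the B lymphocyte rows the highest values in a run of neighbouring wells are in row C, columns 18 to 24, beside row B.

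Without C18 to C24, Cd74 had 4 UMIs in erythroblasts (6.48 CPM), H2-Aa 13 (21.1 CPM), H2-Ab1 8 (13.0 CPM) and H2-Eb1 6 (9.72 CPM). The level of the 7 genes in B lymphocytes was then 61.1-fold that of the erythroblasts in place of 33.0-fold. H2-DMa was spread differently, with 1 UMI in the 7 wells and 5 in the other 89. The part of the plate position in these values was not tested.

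Within progenitor/stem cells, cells were split at the median of each gating protein, a choice made after results of these data were known. Cells above the median of c-Kit had 35 UMIs of H2-Aa, H2-Ab1, H2-Eb1 and Cd74 against 58 below it (0.611-fold, 0.390 to 0.945), and 28 against 56 UMIs of H2-Ob (0.506-fold, 0.310 to 0.811). H2-DMa had 65 and 69 UMIs (0.954-fold, 0.669 to 1.36). Flt3, a receptor of lymphoid-primed progenitors, had 109 against 258 UMIs in the same split, and Ighm 22 against 146. Above the median of Sca-1, the same 4 class II genes had 54 against 39 UMIs (1.55-fold, 1.01 to 2.40) and H2-DMa 68 against 66 (1.15-fold, 0.810 to 1.64). Well K6, named above for its granulocyte markers and Hba-a1, held 7 UMIs of these 4 class II genes. It lay below the median of c-Kit and above that of Sca-1, and its part in these ratios was not tested. By FSC-A the 7 genes had a ratio of 1.01 (0.781 to 1.30).

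In the granulocytes, H2-DMa had 3 UMIs in the 48 wells above the median of Gr1 and 16 in the 48 below it (0.272-fold, 0.0509 to 0.952). Well I17 alone held 6 of the 16, and without it the split was 3 against 10 UMIs (0.429-fold, 0.0759 to 1.67), an interval that spans 1. The 4 chain and invariant chain genes had 14 and 16 UMIs (1.27-fold, 0.575 to 2.78). The wells with less Gr1 also held 183 of the 184 UMIs of F13a1, a gene of monocytes, and 60 of the 63 UMIs of Irf8, a transcription factor of monocytes and dendritic cells. Over all granulocytes, 7 of the 9 monocyte and macrophage markers in the table had a UMI, and they summed to 1680 CPM, against 30.0 to 105 CPM in the other populations. All 6 dendritic cell markers in the table had a UMI there, 13 UMIs in all, of which 9 were in well I17. The part of monocytes in the H2-DMa of the granulocytes was not tested.

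Of 32 other genes of the class II pathway, 28 were in the table and 17 reached 20 UMIs in a population. Among the factors that switch class II genes on, Irf4 had 52 UMIs in B lymphocytes and 2 to 5 elsewhere (383 against 3.00 to 20.0 CPM). Irf8 was at 228 CPM in B lymphocytes (31 UMIs, 155 to 324) and 156 CPM in granulocytes (63 UMIs, 120 to 200), intervals that overlap, at 61.1 CPM in progenitor/stem cells and at 15.0 CPM or less in the others. Spi1, which encodes the factor PU.1, had 288 UMIs in granulocytes (714 CPM) and 148 in progenitor/stem cells (177 CPM). The B lymphocytes had 110 CPM of Spi1, so its order was not that of the chain genes. Inside the B lymphocytes Irf4 and Irf8 went apart: in the wells with high B220 Irf4 had 2 of 52 UMIs (0.225-fold, 0.0265 to 0.857) and Irf8 12 of 31 (3.55-fold, 1.57 to 7.71).

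For the promoter proteins, B lymphocytes and the highest population were compared by overlap of level intervals, which does not by itself exclude a difference. Of the 7 RFX, NF-Y and CREB genes, none had its highest CPM in B lymphocytes (3 had it in erythroblasts, 3 in progenitor/stem cells and 1 in T lymphocytes), but for each of the 7 the interval of the B lymphocytes overlapped that of the highest population. The share of all genes with their highest CPM in B lymphocytes was not computed, so this count is a description. Rfx5, a subunit of the RFX complex, had 44 UMIs in progenitor/stem cells (52.7 CPM), 7 in B lymphocytes (51.5 CPM), 7 in T lymphocytes (34.9 CPM), 4 in granulocytes and 1 in erythroblasts. The B lymphocytes over the progenitor/stem cells had a ratio of 0.978 (0.372 to 2.19). Creb1 was at 319 CPM in T lymphocytes (246 to 408) and 191 CPM in B lymphocytes (125 to 281).

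Of 7 genes that prepare peptides, 4 reached 20 UMIs in a population. The cathepsin Ctsd was at 283 CPM in granulocytes (233 to 339) and 14.7 CPM in B lymphocytes (2 UMIs), and the thiol reductase Ifi30 at 139 CPM (105 to 180) and 51.5 CPM (20.7 to 106). Ctsh, at 178 CPM in granulocytes (140 to 225) and 103 CPM in B lymphocytes (56.4 to 173), could not be ordered between the 2. Ctsb was highest in erythroblasts, at 670 CPM (610 to 736). At the 4-fold limit, the B lymphocytes were above the T lymphocytes for H2-Ob, Irf4 and Irf8 and below them for Ctsd among 9 pathway genes with enough UMIs, where 4.21% of all genes were above. They were above the granulocytes for H2-Ob and Irf4 and below them for Ctsd and Spi1 among 13 (5.83% above). Over the erythroblasts, H2-Ob, Spi1, Irf4 and Irf8 were above and Ctsb, Ctsd and March8 below among 11 (11.4% above), and over the progenitor/stem cells Ctsh and Irf4 were above and Ctsd below among 16 (2.48% above). Against the progenitor/stem cells 2.74% of all genes were below, and for the other populations this share was not computed. Nothing is read from the number of pathway genes below.

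Among 3901 genes with at least 100 UMIs, those whose summed level followed that of the 7 genes most closely over the 5 populations were Herpud1 (r = 0.999), Cd79b (0.994), Bcl7a (0.989), Snn (0.986) and Nedd8 (0.981), on the log2(CPM + 10) scale. Herpud1, a gene of protein quality control in the endoplasmic reticulum, was at 302 CPM in B lymphocytes and between 21.0 and 51.5 CPM elsewhere. Cd79b, a signalling chain of the B cell receptor, was at 1370 CPM in B lymphocytes and at most 34.7 CPM elsewhere. The 5 points that share their depth allow many such matches, and Nedd8 ranged only from 85.5 to 162 CPM.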

How the data were processed

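The authors deposited raw whole-number counts of UMIs per gene and well, made with scPipe from CEL-seq2 reads. Aligner version, build, annotation and strand setting were not given in the sources used here. All 374 wells with a labelled population were used, and 9 further columns, which no label matched, were left out. ERCC spike-ins (74 rows) were kept out of totals. Symbols were taken from GENCODE M21 for 19755 of 19829 mouse genes. The 7 genes, the gene lists and the splits were chosen with earlier results of these data known.

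UMIs were summed over the wells of each population and divided by the population's UMIs on mouse genes (CPM). With 1 mouse and 1 plate, each population was 1 sample, so no test across replicates was made and the 95% exact intervals cover counting error only. Where a summed count was 0, ratios used a floor of 3 UMIs over the population. No doublets were called, and no well was removed. The ratio intervals and the 4-fold limit were tested on simulated Poisson sums for B and T lymphocytes, and the splits were not. Other genes named were those of the B cell maturation lists, those of a pathway list with at least 20 UMIs in a population, the 5 genes most like the summed level, and the 5 wells with most UMIs in each population outside the B lymphocytes. Vpreb3, Flt3, Ighm, F13a1, Igkc, Brd2 and haemoglobin were named after their values had been seen, as were wells of the B lymphocytes and H2-DMb2 and H2-Oa below 20 UMIs. Alternatives covered the wells used, the denominator, TMM (edgeR 4.0.16), median-of-ratios, scran 1.30.0 and ERCC scaling, thinning and thresholds. R 4.3.3, numpy 2.4.6, pandas 2.3.3, scipy 1.17.1 and matplotlib 3.10.9 were used.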

Additional observations from a re-analysis of the deposited data

How the results depend on the processing

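No paired analysis was possible because each population was 1 sample and a replicate number only names a well. The B lymphocytes stayed above every other population for the sum of the 7 genes under all 14 other settings (2 of them, and the split of B220 at 2000 and the omission of I17, chosen after seeing the data), with ranges of 6.06- to 22.6-fold over T lymphocytes, 8.52- to 33.3-fold over granulocytes, 9.81- to 61.1-fold over erythroblasts and 3.66- to 16.8-fold over progenitor/stem cells. On the log2 scale, the values that moved beyond counting error from 4.35, 4.84, 5.04 and 3.62 were as follows. Without the B lymphocyte wells above 2000 in B220 they were 2.60, 3.09, 3.29 and 1.87. TMM gave 4.18 over granulocytes and 4.29 over erythroblasts, and median-of-ratios factors gave 4.24, 4.40 and, over progenitor/stem cells, 3.95. Such factors shift the ratios of all genes alike. Over erythroblasts, scran factors gave 3.86, ERCC scaling 3.84 and leaving out C18 to C24 5.93, and over progenitor/stem cells scran factors gave 4.07 and ERCC scaling 2.30. ERCC scaling holds the UMIs per well and not the share of a well.

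For H2-DMa with H2-DMb1 the log2 ratio of progenitor/stem cells over B lymphocytes, 0.44, ran from -0.17 to 1.76, with 1.76 by ERCC scaling and 1.45 without the wells above 2000 in B220. Over T lymphocytes scran factors gave 0.55 in place of 1.79, over granulocytes TMM gave 0.96, median-of-ratios 0.80 and ERCC scaling 2.69 in place of 1.73, and over erythroblasts scran factors gave 2.78 in place of 4.39. H2-DMa alone, B lymphocytes over T lymphocytes and over granulocytes, turned to -0.051 and -0.12 without the wells above 2000 in B220. The CPM of the 7 genes in B lymphocytes was 3149 without well A14, 4355 as a mean over wells, 4867 without Gm42418 in the denominator, 5052 without Gm42418 and haemoglobin, 3171 by TMM and 1119 without the wells above 2000 in B220, in place of 3763.

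The share of wells with a UMI of any of the 7 genes depended on depth. Thinned to 1000 UMIs it was 55.2% for B lymphocytes, 15.1% for T lymphocytes, 11.2% for granulocytes, 10.1% for erythroblasts and 27.1% for progenitor/stem cells. Thinned to 2000 it was 28.6%, 18.9%, 16.4% and 46.1% for the last 4, and at 2 UMIs or more it was 56.8%, 18.6%, 13.5%, 16.7% and 70.5%. Splitting the B lymphocytes by FSC-A in place of B220 gave a log2 ratio of -0.51, and splitting at 2000 gave 4.06, in place of 3.41. Of the values of single-gene ratios under the alternatives, 38 moved beyond counting error, 2 changed sign and 324 did neither. Of the values of the other results, sums and shares among them, 42 moved, 1 changed sign and 124 did neither. The counts of members past the 4-fold limit stayed within 1.5 times under each other threshold, minimum and floor.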

Other observations

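March8 encodes a ubiquitin ligase of the MARCH family, some of whose members turn over surface class II molecules. It had 236 UMIs in erythroblasts, at 354 CPM (310 to 402), and was found in 86 of 96 erythroblast wells. Elsewhere it was between 15.0 CPM (T lymphocytes) and 51.5 CPM (B lymphocytes, 7 UMIs), so the gene was highest in the population with the least H2-DMa and no H2-DMb1.

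The receptor chains for interferon gamma, which induces Ciita in many cell types, were not highest in B lymphocytes. Ifngr2 was at 206 CPM in granulocytes, 95.7 CPM in B lymphocytes, 89.8 CPM in T lymphocytes and 43.1 CPM in progenitor/stem cells, with 3 UMIs in erythroblasts. Ifngr1 was at 45.5 CPM in progenitor/stem cells, 42.1 CPM in granulocytes and 29.5 CPM in B lymphocytes (4 UMIs), whose interval of 8.03 to 75.4 overlaps both, and had 2 UMIs in T lymphocytes and 0 in erythroblasts.

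After I17, the granulocyte wells with most UMIs of the 7 genes were G13 and I2 with 4 each and H20 and J6 with 3 each. These 4 wells held 32, 41, 18 and 47 UMIs of monocyte and macrophage markers. Wells J12, G20 and H17 held 74, 49 and 42 UMIs of these markers and no UMI of the 7 genes, and I17 held 4 of these markers.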
